A study of Mus musculus with 8 samples.

Results

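The Fc receptor family was examined here as 8 genes taken from the table by symbol: the activating IgG receptors Fcgr1, Fcgr3 and Fcgr4, the inhibitory IgG receptor Fcgr2b, the signaling chains Fcer1g and Tyrobp, the kinase Syk and the neonatal Fc receptor chain Fcgrt. They were 8 of 54532 genes in the count table, and all 8 were among the 12911 genes that passed the filter on low counts. Transcripts were counted by bulk RNA-seq in untreated macrophages differentiated from bone marrow for 6 days, in 4 libraries from wildtype mice (WT 1 to WT 4) and 4 from Gsdmd-/- mice, to ask what loss of gasdermin D, the pore-forming protein of pyroptosis, changes in resting macrophages. The cells were cultured in macrophage colony-stimulating factor (M-CSF), and marrow was taken from female C57BL/6J mice aged 6 to 8 weeks. Gsdmd-/- animals came from a knockout line, with no separate age or sex given for these cultures. No label says that libraries came from separate mice, so p-values measure only the spread between libraries, which may be technical.

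Fc gamma receptors bind the constant region of IgG and let macrophages take up or answer to antibody-coated particles. The activating receptors have no signaling motif of their own in the mouse and work through the FcR gamma chain encoded by Fcer1g, whose phosphorylated ITAM docks the kinase Syk. FcγRIIb, the product of Fcgr2b, carries an inhibitory ITIM in its own tail and opposes them, and Tyrobp encodes DAP12, an ITAM adaptor used by other myeloid receptors such as TREM2. Fcgrt encodes the heavy chain of FcRn, which pairs with beta-2 microglobulin and returns internalized IgG to the cell surface.

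Fcgr2b, Fcgr4, Fcgr3 and Fcer1g lay in this order on chromosome 1 within 276 kb (GRCm38, GENCODE M21). Fcgr2b (ENSMUSG00000026656) occupied chr1:170958617-170976547 on the minus strand, and Fcgr4 (ENSMUSG00000059089) followed 42.4 kb further on at chr1:171018920-171029761 on the plus strand. Fcgr3 (ENSMUSG00000059498) began 21.4 kb beyond Fcgr4, at chr1:171051174-171064935 on the minus strand. Fcer1g (ENSMUSG00000058715) stood 165 kb beyond Fcgr3, at chr1:171229572-171234365 on the minus strand. Fcgr1 (ENSMUSG00000015947) lay at chr3:96282909-96293969 on the minus strand, and Syk (ENSMUSG00000021457) at chr13:52583173-52648792 on the plus strand. Tyrobp (ENSMUSG00000030579) and Fcgrt (ENSMUSG00000003420) were both on chromosome 7, at chr7:30413760-30417585 on the plus strand and chr7:45092990-45103851 on the minus strand.

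The promoters of the 3 activating receptors are shown because these genes, of which Fcgr4 moved among libraries in the opposite direction to Fcgr1 and Fcgr3, all held the same short motif. Each line holds the 120 bases before the RefSeq start (GRCm38.p6), 5′ to 3′ on the strand of the gene, for Fcgr1 at chr3:96293970-96294089, Fcgr3 at chr1:171059404-171059523 and Fcgr4 at chr1:171018806-171018925. Capitals mark TTCCTC, which is the PU box GAGGAA (the core bound by the myeloid factor PU.1) read on the opposite strand, and in Fcgr1 also TTCCCAGAA, a match to the interferon gamma-activated sequence TTCNNNGAA.
Fcgr1: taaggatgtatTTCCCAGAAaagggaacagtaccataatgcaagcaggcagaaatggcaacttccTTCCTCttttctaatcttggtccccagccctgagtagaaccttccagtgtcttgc
Fcgr3: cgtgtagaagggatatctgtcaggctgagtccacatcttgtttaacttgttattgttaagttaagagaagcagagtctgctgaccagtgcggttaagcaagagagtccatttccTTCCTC
Fcgr4: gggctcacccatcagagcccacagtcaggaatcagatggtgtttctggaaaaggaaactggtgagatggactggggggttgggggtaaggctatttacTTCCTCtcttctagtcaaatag

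Over the 250 bases before each start, searched on both strands, the PU box was present in 4 of the 7 members with a RefSeq promoter, Fcgr1, Fcgr3, Fcgr4 and, at the second of its listed starts, Syk. The same letters were in 25.9% of all 27025 genes with a promoter window of that length. It stood 55 bases before the start in Fcgr1, 22 bases before it in Fcgr4 and 6 bases before the printed start of Fcgr3. From the second listed start of Fcgr3 the same match was 15 bases away. Both Fcgr3 starts, at 171059403 and 171059394, lie inside its GENCODE span, which on the minus strand begins at 171064935. TTCNNNGAA was matched in 1 of the 7, Fcgr1, and in 8.13% of all genes, while the AP-1 site TGANTCA was matched in 0 of the 7 and in 7.82% of all genes. No 2 of the motifs overlapped in the printed sequences, and a match is a description of letters only.

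Libraries held 14935114 to 16794810 counts, so that 3 counts, used here as the floor, corresponded to 0.177 to 0.199 CPM (read counts scaled to a TMM library size of 1000000). Gsdmd itself fell from 75.3 ± 14.1 CPM (SD, n = 4) in WT to 16.2 ± 1.56 CPM (SD, n = 4) in Gsdmd-/- macrophages, with 1039 to 1570 counts against 241 to 307 and a log2 fold change of −2.22 (SE 0.139, adjusted p = 4.7e-05, edgeR quasi-likelihood test). In a principal component analysis of 12796 genes that left out every gene listed here, WT 2 and WT 3 stood apart from the other 6 libraries, at 45.0 and 38.4 on the first component (43.4% of the variance) against −25.5 to −7.09. The fold change of each member is therefore given also without these 2 libraries. Macrophage markers were present throughout, led by Lyz2, with a summed level of 15442 to 23513 CPM in WT and 19483 to 23456 CPM in Gsdmd-/- libraries over 8 genes.

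Across all 8 libraries, the activating receptors, the inhibitory receptor and their signaling chains did not separate by genotype. In 0 of the 8 members did the WT and Gsdmd-/- values lie apart, against 7.60% of all genes tested. By edgeR's quasi-likelihood test, 0 of 8 had an adjusted p under 0.05, against 0.349% of all genes, and DESeq2 and limma voom also gave 0. At an unadjusted p under 0.05, 1 of 8 was called, Fcgrt, against 12.0% of all genes. Fcgrt was also the 1 member whose log2 fold change was 0.5 or more in size at such a p (the fold cutoff), against 4.83% of all genes. What varied was the WT group: WT 2 and WT 3 were the lowest pair of all 8 libraries for Fcgr1, Fcgr2b, Fcgr3 and Fcer1g, and the highest pair for Fcgr4 and Fcgrt. Those were 4 of 8 members against 17.5% of all genes and 2 of 8 against 17.9%.

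**Figure D1:**
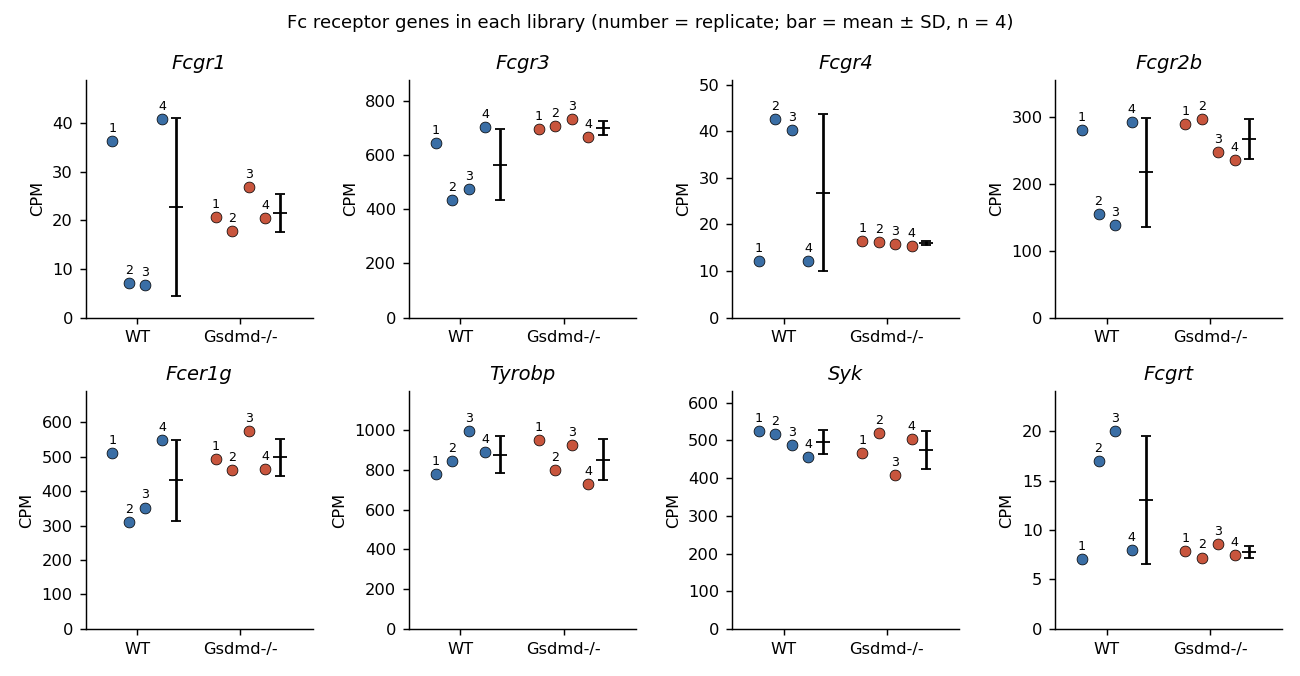
CPM of the 8 members in each library, WT in blue and Gsdmd-/- in red, numbered by replicate, with the mean ± SD (n = 4) as a bar. WT replicates 2 and 3 lie below all other libraries for Fcgr1, Fcgr3, Fcgr2b and Fcer1g and above them for Fcgr4 and Fcgrt, while Tyrobp and Syk show neither order.

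Fcgr1, which encodes the high-affinity IgG receptor FcγRI, was at 36.2, 7.09, 6.66 and 40.7 CPM in WT 1 to 4, and at 20.6, 17.8, 26.9 and 20.4 CPM in Gsdmd-/- 1 to 4. WT 1 and WT 4 were above every Gsdmd-/- library and WT 2 and WT 3 below every one, so the Gsdmd-/- values sat between the extremes of the WT group. The WT libraries spanned a 6.12-fold range, the widest of the 8 members, and the Gsdmd-/- libraries 1.51-fold. These CPM rested on 109 to 669 counts per library. The means, 22.7 ± 18.3 and 21.4 ± 3.86 CPM (SD, n = 4 each), gave a log2 fold change of −0.08 with a 95% interval from −1.25 to 1.09 (SE 0.526, adjusted p = 0.967, edgeR). With WT 2 and WT 3 left out, all 4 Gsdmd-/- libraries were below both remaining WT libraries and the log2 fold change was −0.85 (SE 0.150, adjusted p = 0.0320, edgeR). Over the 17 alternative settings the adjusted p of Fcgr1 ran from 0.0320 to 0.998, and the call was made only in that one.

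Fcgr3 encodes FcγRIII, the low-affinity activating receptor, and had the highest level of the 4 Fc gamma receptor genes. It was at 645, 433, 474 and 704 CPM in WT 1 to 4 and at 695, 706, 731 and 667 CPM in Gsdmd-/- 1 to 4. WT 2 and WT 3 were again the lowest, WT 1 was also below every Gsdmd-/- library, and WT 4 was within their range. The log2 fold change was 0.31 with a 95% interval from −0.02 to 0.64 (SE 0.148, adjusted p = 0.449, edgeR), and 0.05 from −0.14 to 0.24 without WT 2 and WT 3 (adjusted p = 0.882). The Gsdmd-/- libraries held close together, at 699.7 ± 26.7 CPM against 564 ± 131 CPM in WT (SD, n = 4 each).

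Fcgr4 encodes FcγRIV, an activating receptor of intermediate affinity found on mouse myeloid cells. In WT 1 to 4 its level was 12.1, 42.5, 40.2 and 12.2 CPM, and in Gsdmd-/- 1 to 4 it was 16.3, 16.2, 15.8 and 15.4 CPM. Here the order was turned round: WT 2 and WT 3 were the highest of all libraries and WT 1 and WT 4 the lowest, with the Gsdmd-/- libraries in a narrow band just above the latter. The WT range was 3.51-fold and the Gsdmd-/- range 1.06-fold, on 199 to 696 counts per library. The log2 fold change was −0.75 with a 95% interval from −1.62 to 0.12 (SE 0.391, adjusted p = 0.498, edgeR). It turned positive without WT 2 and WT 3, at 0.39 (95% interval 0.14 to 0.63, SE 0.110, adjusted p = 0.151), with all 4 Gsdmd-/- libraries above both remaining WT libraries.

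Fcgr2b, the gene of the inhibitory receptor FcγRIIb, was at 281, 155, 139 and 293 CPM in WT 1 to 4 and at 289, 296, 248 and 235 CPM in Gsdmd-/- 1 to 4. WT 2 and WT 3 were the lowest and the other 6 libraries overlapped. The log2 fold change was 0.30 with a 95% interval from −0.21 to 0.81 (SE 0.232, adjusted p = 0.662, edgeR), and −0.11 from −0.36 to 0.15 without those 2 libraries (adjusted p = 0.795). Fcgr2b and Fcgr3 are close paralogs: 166 of the 50-base words in their exons occurred in both genes, which was 2.92% of the words of Fcgr2b and 9.58% of those of Fcgr3, so part of their reads may have been split or dropped by a counting step that is not described. Counting every other gene, Cplx2, Gm47409 and the antisense Gm38204 among them, 395 words or 6.95% of those of Fcgr2b were not unique. The other 6 members shared no 50-base word with another gene. Fcgr2b also overlaps the antisense gene Gm38204 over 155 exon bases, and since strand was not stated their reads cannot be told apart there, although Gm38204 held only 6 counts over all libraries. The antisense gene Gm45669, with 1 count, overlaps the span of Fcgrt but shares 0 exon bases with it.

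**Figure D2:**
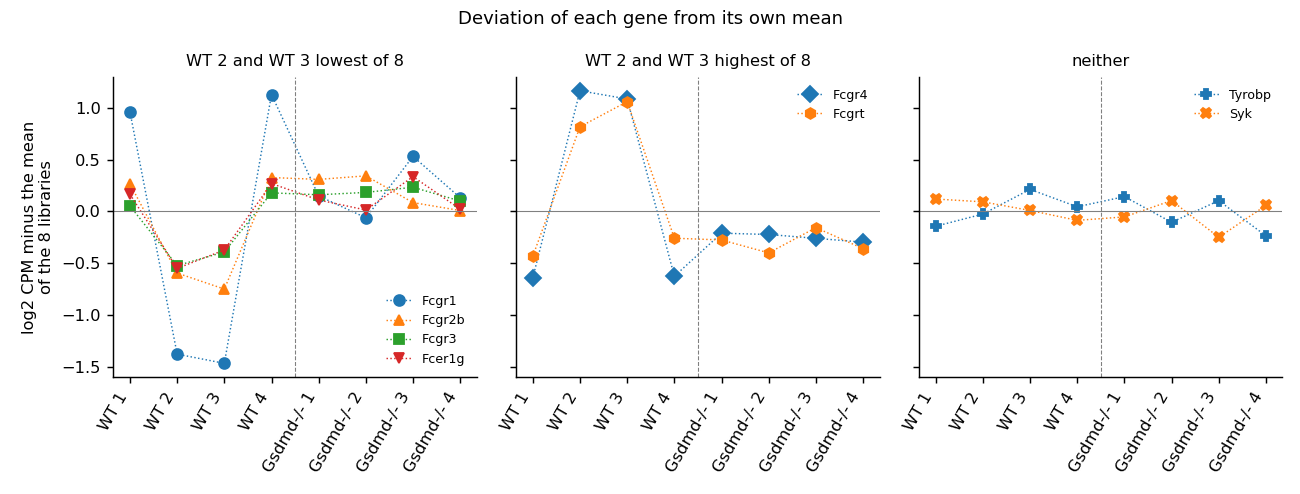
Log2 CPM of each member in each library minus its mean over the 8 libraries, in 3 panels by where WT 2 and WT 3 stood. Fcgr1 moves furthest, and the genes with WT 2 and WT 3 lowest mirror Fcgr4 and Fcgrt, while Tyrobp and Syk stay near 0.

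Of the signaling chains, Fcer1g was lowest in WT 2 and WT 3 like Fcgr1 and Fcgr3 but unlike Fcgr4, all of which use its product, and Tyrobp was not. Fcer1g was at 512, 312, 353 and 549 CPM in WT 1 to 4 and at 492, 460, 576 and 463 CPM in Gsdmd-/- 1 to 4. Outside WT 2 and WT 3 the genotypes overlapped. Its log2 fold change was 0.21 with a 95% interval from −0.18 to 0.60 (SE 0.176, adjusted p = 0.694, edgeR), and −0.09 from −0.34 to 0.15 without WT 2 and WT 3 (adjusted p = 0.813).

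Tyrobp was at 780, 846, 998 and 888 CPM in WT 1 to 4 and at 951, 801, 926 and 731 CPM in Gsdmd-/- 1 to 4. The genotypes were interleaved, with WT 3 the highest library and WT 2 in the middle. The log2 fold change of −0.04 had a 95% interval from −0.29 to 0.21 (SE 0.113, adjusted p = 0.912, edgeR), and without WT 2 and WT 3 it was 0.03 from −0.25 to 0.31. Trem2, a DAP12-coupled receptor looked up after the values were seen, was likewise close in both genotypes, with 588 ± 46.3 CPM (SD, n = 4) in the WT group against 572 ± 57.2 CPM (SD, n = 4).

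Syk, the kinase that both ITAM chains recruit, had the narrowest range over the 8 libraries among the members. It was at 526, 516, 487 and 456 CPM in WT 1 to 4 and at 466, 520, 407 and 504 CPM in Gsdmd-/- 1 to 4, with the genotypes interleaved. The log2 fold change of −0.06 had a 95% interval from −0.28 to 0.15 (SE 0.0970, adjusted p = 0.835, edgeR), and without WT 2 and WT 3 it was −0.05 from −0.32 to 0.21.

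Fcgrt, the FcRn heavy chain, was at 7.06, 16.9, 20.03 and 7.97 CPM in WT 1 to 4 and at 7.88, 7.22, 8.56 and 7.43 CPM in Gsdmd-/- 1 to 4, on 112 to 328 counts per library. As with Fcgr4, WT 2 and WT 3 were the highest, WT 4 was among the Gsdmd-/- values, and WT 1 was just under the lowest of them. The log2 fold change was −0.74 with a 95% interval from −1.43 to −0.05 (SE 0.310, unadjusted p = 0.0369, adjusted p = 0.380, edgeR). An exact permutation test of the 8 CPM gave p = 0.314 (two-sided, 0.0286 being the smallest that 4 against 4 can give). Without WT 2 and WT 3 the log2 fold change was 0.05 with a 95% interval from −0.28 to 0.37 (adjusted p = 0.943). B2m, the beta-2 microglobulin partner of FcRn and of class I molecules, ran the other way, at 4139, 2187, 2387 and 4805 CPM in WT 1 to 4 and 3940 to 4801 CPM in Gsdmd-/- libraries. The ratio of B2m to Fcgrt in CPM per kilobase of exon was 1433, 316, 291 and 1473 in WT 1 to 4 and 1296 to 1469 in Gsdmd-/- libraries, so only WT 2 and WT 3 were far from the rest.

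**Figure D3:**
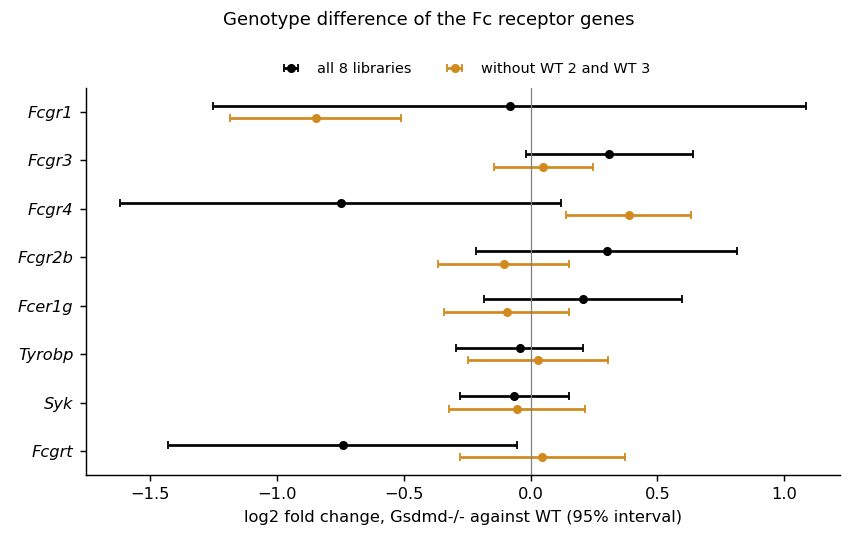
Log2 fold change of each member (Gsdmd-/- against WT) with its 95% interval from the edgeR fit, over all 8 libraries in black and without WT 2 and WT 3 in orange. Over all libraries only the interval of Fcgrt lies off 0, and without the 2 libraries only those of Fcgr1, at −0.85, and Fcgr4, at 0.39, do.

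Without WT 2 and WT 3, 2 of the 8 members no longer overlapped between genotypes, Fcgr1 lower and Fcgr4 higher, against 22.7% of the 13288 genes tested in that fit. An adjusted p under 0.05 was then reached by 1 of 8, Fcgr1, against 1.21% of all genes, and Fcgr1 was also the 1 member at the fold cutoff, against 6.19%. The 2 libraries also stood apart in markers of other cells, and the part of this in the receptor values was not tested. B cell markers summed to 9.04 and 9.10 CPM in WT 2 and WT 3, mostly Ighm, against 0.464 to 1.599 CPM in the other libraries. The 7 dendritic cell markers summed to 52.7 and 49.4 CPM there, against 16.9 to 22.8 CPM elsewhere, and nearly all of this was Clec9a, at 49.1 and 45.3 CPM against 14.5 to 18.3 CPM. The other 6 reached at most 3.10 CPM, in WT 4 (Zbtb46), and Flt3 was at 0 in both libraries. The 8 mast cell and basophil markers summed to 16.4 and 16.5 CPM against 53.5 to 80.6 CPM elsewhere. This was mostly Kit, at 11.4 and 10.3 CPM against 45.99 to 71.0 CPM, and Gata2 was also lowest there. The other 6 of these markers reached at most 1.58 CPM in any library and did not share that order. The summed macrophage markers, mostly Lyz2, were lowest in these 2 libraries, which were the lowest pair for 3 of the 8 markers and the highest pair for 2, Adgre1 and Mertk. Genes of the marker lists other than the leading one of each were named after their values were seen. Marker sums for neutrophils (4.63 to 6.98 CPM, led by S100a8), NK cells (0 to 0.609 CPM, led by Klrb1c) and stromal cells (1.07 to 2.92 CPM, led by Pdgfra) were low everywhere, and Ly6g, Retnlg, Cma1, Ncr1, Gzma and Klra8 were at 0 in all libraries. Pdgfra was highest in WT 2 and WT 3, at 2.08 and 1.59 CPM against 0.183 to 0.730 CPM elsewhere, an order that the other stromal markers did not share. In bulk RNA, fewer cells of a type and less RNA per cell cannot be told apart.

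The composition of the Fc gamma receptor transcripts varied more widely among WT than among Gsdmd-/- libraries. In CPM per kilobase of exon, Fcgr3 made up 79.8% to 84.2% of the 4 Fc gamma receptor genes in WT and 85.0% to 86.5% in Gsdmd-/- libraries. These ranges did not overlap, though WT 4 came close to the lowest Gsdmd-/- library, and no p is given for a score over chosen genes. Fcgr4 held 10.8% and 9.66% in WT 2 and WT 3 but 2.02% to 2.76% in the other 6 libraries. Fcgr1 held 0.875% and 0.775% in WT 2 and WT 3, 3.15% and 3.27% in WT 1 and WT 4, and 1.44% to 2.13% in Gsdmd-/- libraries. Fcgr1 and Fcgr4 thus exchanged places: their ratio was 1.45 and 1.61 in WT 1 and WT 4, 0.0809 and 0.0802 in WT 2 and WT 3, and 0.533 to 0.826 in Gsdmd-/- libraries, which lay between the WT pairs and touched neither.

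The ratio of activating (Fcgr1, Fcgr3 and Fcgr4 summed) to inhibitory (Fcgr2b) transcripts per kilobase was 8.15, 10.7, 12.8 and 8.53 in WT 1 to 4 and 8.44, 8.34, 10.4 and 9.97 in Gsdmd-/- 1 to 4. The genotypes overlapped, with WT 2 and WT 3, where Fcgr2b was lowest, the highest. On the log2 scale the WT mean was 3.31 ± 0.304 and the Gsdmd-/- mean 3.21 ± 0.162 (SD, n = 4 for both), a difference of −0.10, which became 0.15 without WT 2 and WT 3 and 0.028 without WT 3 alone. The ratio of Fcer1g to the summed activating receptors was narrower, 1.25 to 1.48 in WT and 1.24 to 1.48 in Gsdmd-/- libraries.

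**Figure D4:**
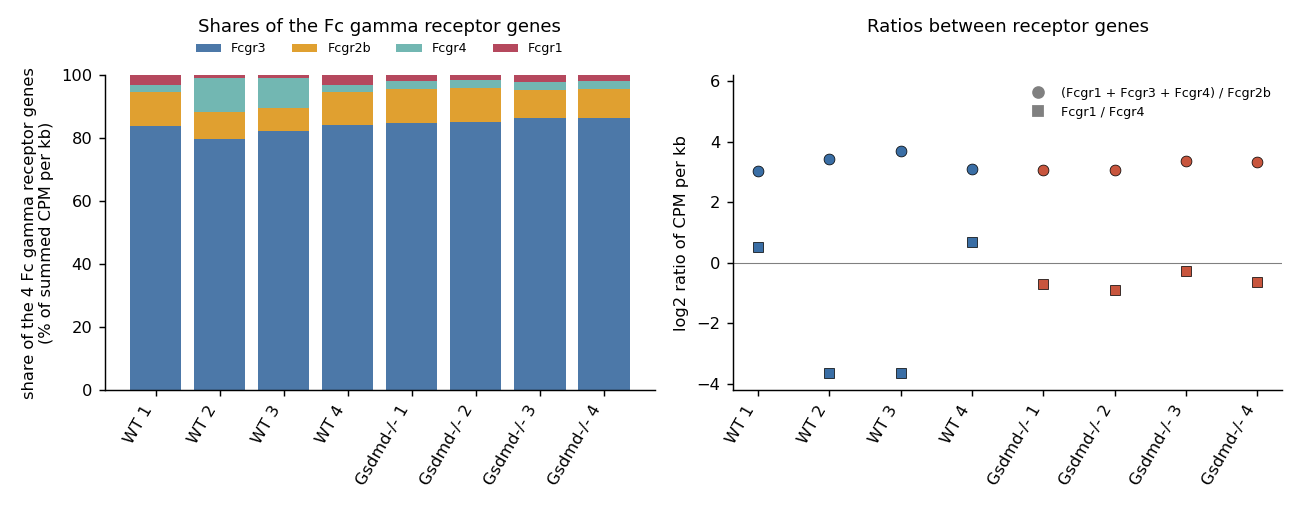
Left, share of each Fc gamma receptor gene in their summed CPM per kilobase, by library. Right, log2 ratio of activating to inhibitory genes (circles) and of Fcgr1 to Fcgr4 (squares), WT in blue and Gsdmd-/- in red, where WT 2 and WT 3 lie near −3.63 for Fcgr1 over Fcgr4 and the other libraries between −0.91 and 0.69.

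The order of the 8 genes by CPM per kilobase was the same in both genotypes. In Gsdmd-/- libraries it ran from Tyrobp at 1278 ± 156 through Fcer1g at 569.7 ± 61.6, Fcgr3 at 403 ± 15.4, Syk at 50.7 ± 5.36 and Fcgr2b at 46.1 ± 5.23 to Fcgr4 at 12.7 ± 0.345, Fcgr1 at 8.27 ± 1.49 and Fcgrt at 3.70 ± 0.283 (SD, n = 4). Only Syk and Fcgr2b, as neighbours in that order, overlapped between libraries. In WT the same order started at 1317 ± 137 for Tyrobp and ended at 6.18 ± 3.08 for Fcgrt (SD, n = 4), but only Tyrobp from Fcer1g and Fcgr3 from Syk were separate, and every other pair of neighbours overlapped. The length used matters for Syk and Fcgr2b. The mean of Syk over all libraries was 51.8 CPM per kilobase over its 9362 exon bases and 90.5 over its longest coding transcript of 5363 bases. For Fcgr2b it was 41.8 over 5790 exon bases and 68.2 over 3544 bases.

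The 3 genes whose pattern over the 8 libraries was closest to that of Fcgr1, by the root mean square difference of centred log2 CPM, were C1qb (0.202), Tnfsf14 (0.215) and Tagap (0.226). C1qb, which encodes a chain of complement C1q, was at 219, 34.9, 44.9 and 273 CPM in WT 1 to 4 and at 112, 89.2, 125 and 97.8 CPM in Gsdmd-/- 1 to 4. Like Fcgr1 it was highest in WT 4 and WT 1, lowest in WT 2 and WT 3, and between them in every Gsdmd-/- library. Tnfsf14, which encodes the cytokine LIGHT, ran from 0.855 to 5.66 CPM and Tagap from 0.244 to 1.76 CPM, so both rested on far fewer reads.

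Signaling genes around the receptors were taken from 8 lists of 116 genes, of which 110 were in the table and 91 were tested. No gene of these lists had an adjusted p under 0.05 by edgeR (0 of 91) or limma voom, and DESeq2 called 4, where it called 2.26% of all genes. The edgeR test gave 1 with RLE scaling, with library totals only and without WT 4. At the fold cutoff 0 were higher, against 1.54% of all genes, and 3 were lower, 3.30% of 91 against 3.28%, and the latter were Fcrlb, Pilrb2 and Myo10. At an unadjusted p under 0.05, however, 16 of 91 were lower, 17.6% against 7.30% of all genes, and 0 were higher, against 4.74%. The higher count was 8 without WT 4, beside 16 lower, and 3 without WT 1, beside 11 lower. All 4 Gsdmd-/- libraries were below all 4 WT libraries in 10 of 91 (10.99%, against 4.12%) and above them in 0 of 91 (against 3.48%). The median log2 fold change over the 91 was −0.09, against −0.0068 over all genes. Without WT 2 and WT 3, 3 of the 91 were higher at the fold cutoff and 11 lower, against 3.05% and 3.15% of all genes.

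The list of 14 inhibitory phosphatases and adaptors, in which Ptprc, Ptprj and Ptpn11 are also known to promote signaling, had 11 genes below 0 and 3 above, against 6653 of all 12911 below 0, and a median of −0.21. At an unadjusted p under 0.05, 5 of the 14 were lower, against 7.30% of all genes, and 0 were lower at the fold cutoff, against 3.28%. Ptpn6, which encodes the phosphatase SHP-1 and was singled out after its values were seen, was at 113, 121, 132 and 122 CPM in WT 1 to 4 and at 86.4, 83.0, 95.1 and 92.4 CPM in Gsdmd-/- 1 to 4. Every Gsdmd-/- library was below every WT library, and WT 2 and WT 3 did not stand apart. Its log2 fold change was −0.45 (SE 0.0812, adjusted p = 0.0564, edgeR) and stayed between −0.48 and −0.40 over 17 alternatives, with adjusted p from 4.2e-05 to 0.260, and 3 of them under the threshold. Ptpn11 (SHP-2) and Inppl1 (SHIP-2), also chosen after their values were seen, did not overlap either, at log2 fold changes of −0.22 and −0.44 (adjusted p = 0.269 and 0.209, edgeR). WT 2 and WT 3 were the highest pair for Inppl1, at 66.97 and 67.1 CPM, and without them its log2 fold change was −0.22 (adjusted p = 0.420, range over 17 alternatives 0.0603 to 0.467). Inpp5d, the SHIP-1 phosphatase that FcγRIIb recruits, also looked up after the values were seen, had overlapping genotypes and a log2 fold change of −0.09 (adjusted p = 0.766), and Dok2, the gene of this list with the highest level per kilobase, had −0.11 (adjusted p = 0.837).

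Of 16 ITAM adaptors and phospholipase C genes, 5 were lower at an unadjusted p under 0.05, against 7.30% of all genes, and 4 were lower without overlap, against 4.12%. Among the latter, and named after their values were seen, were Lcp2 (SLP-76), with a log2 fold change of −0.24 (adjusted p = 0.233, edgeR) and Prkcd at −0.28 (adjusted p = 0.232), and the gene with the highest level per kilobase, Grb2, showed a difference of 0.17 on the log2 scale (adjusted p = 0.492). WT 2 and WT 3 were the highest pair for Prkcd and the lowest for Grb2, and without them the values were −0.19 and 0.062. Myo10, a myosin of phagocytic cups and the gene at the fold cutoff whose genotypes did not overlap, was at 64.9, 71.7, 60.1 and 49.5 CPM in WT 1 to 4 and at 41.3, 44.7, 34.6 and 47.0 CPM in Gsdmd-/- 1 to 4. Its log2 fold change was −0.55 (SE 0.131, adjusted p = 0.132, edgeR), and WT 2 and WT 3 did not stand apart. Over 17 alternatives its adjusted p ran from 0.0144 to 0.393, and it was under 0.05 in 2, DESeq2 and without WT 4. Arpc2, a subunit of the actin-nucleating Arp2/3 complex, showed a difference of 0.15 on the log2 scale (adjusted p = 0.678), with WT 2 and WT 3 the lowest pair.

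In the remaining lists, the fold cutoff was reached in either direction by 0 of 8 FcR gamma-coupled receptors, 1 of 14 DAP12-coupled receptors, 0 of 8 Src and Tec family kinases, 0 of 8 PI3K genes and 1 of 4 other Fc receptor genes tested, against 4.83% of all genes. Clec4n (dectin-2) had the highest level per kilobase of the FcR gamma-coupled list, with a log2 fold change of −0.03 (adjusted p = 0.954, edgeR). The DAP12-coupled receptor at the cutoff was Pilrb2, with a log2 fold change of −1.26 (SE 0.545, adjusted p = 0.393), on 231 counts in all. Reads that Pilrb2 may share with related genes were not examined. Cd300c2 led that list per kilobase, with a log2 fold change of 0.05 (adjusted p = 0.895). Lyn, a Src family kinase that phosphorylates ITAMs and the highest of its list per kilobase, showed a difference of −0.06 on the log2 scale (adjusted p = 0.794). Of the PI3K genes, 1 of 8 was lower without overlap, against 4.12% of all genes, and Pik3ap1, the highest per kilobase, showed a difference of −0.13 on the log2 scale (adjusted p = 0.729). Of the 14 other Fc receptor genes 4 were tested, and the 1 at the cutoff was Fcrlb, with a log2 fold change of −0.55 on 506 counts (adjusted p = 0.408). Fcer1a, Ms4a2, Fcer2a, Fcmr and Fcamr, looked up after the values were seen, were hardly detected or absent. Fcer1a and Ms4a2, which encode IgE receptor chains, held 4 and 11 counts over all libraries, and Fcer2a, Fcmr and Fcamr held 0.

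**Figure D5:**
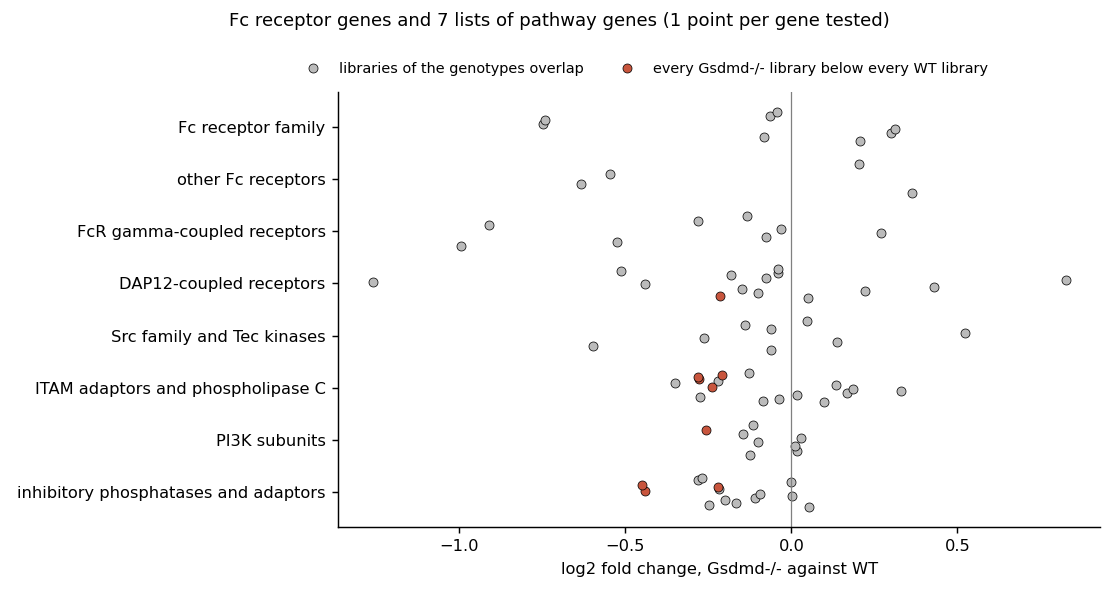
Log2 fold change (Gsdmd-/- against WT) of each tested gene, 1 row per list, with the 8 members on top. The plot holds 7 of the 8 lists, and red points are the 9 of their 72 genes whose 4 Gsdmd-/- libraries all lay below the 4 WT libraries, and 0 lay wholly above.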

How the data were processed

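RNA was taken from 8 libraries of bone marrow-derived macrophages, 4 WT and 4 Gsdmd-/-, grouped by the genotype in the labels. The authors deposited 1 table of raw read counts per gene. The build was mm10 per the submitters' processing notes, and aligner, counter, annotation and strand are not given in the sources used here. Counts were fitted over the whole table with edgeR 4.0.16 in R 4.3.3 (filterByExpr, TMM, glmQLFit and glmQLFTest, genotype as the only term, two-sided), with Benjamini-Hochberg adjustment over the 12911 genes tested. CPM use TMM library sizes, and log2 CPM a prior count of 2. Exon lengths and positions are from GENCODE M21 (GRCm38), which held 54495 of the 54532 identifiers, and promoters are from RefSeq (GRCm38.p6), with 7 of 8 members matched and Tyrobp missing. Intervals cover the spread between libraries, and count floors cover counting error only.

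The 8 members and all lists (8 pathway lists and 7 marker lists) were chosen with earlier results of these data known, and no p was adjusted over a list alone. Named genes were Gsdmd, the members, in each pathway list any gene with an adjusted p under 0.05, up to 3 at the fold cutoff and the gene with the highest CPM per kilobase, in each marker list the gene with the highest CPM, the 3 genes closest to the member with the widest range, and genes overlapping a member. For 1 of the 8 pathway lists no separate counts are reported here, but its genes are in the counts over all lists. Other genes are said to be chosen after their values were seen. Alternatives were RLE, upper-quartile and total-count scaling, other filters, DESeq2 1.42.0, limma voom 3.58.1, a replicate block, each library left out in turn, and WT 2 and WT 3 left out together. Counts of pathway genes without overlap or with an unadjusted p under 0.05, and the use of the longest coding transcript, were added after seeing the data. The fitting code was tested on simulated data. No pair of libraries agreed within counting noise (chi-square per gene 5.92 to 82.0), so all 8 were kept.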

Additional observations from a re-analysis of the deposited data

How the results depend on the processing

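The count of members at the fold cutoff was 1, and became 2 without the filter on low counts, 0 with limma voom, 0 with the fold cutoff raised to 1, and 0 to 2 when 1 library was left out: 0 without WT 2, WT 3 or any Gsdmd-/- library and 2 without WT 1 or WT 4. No single library gave a member an adjusted p under 0.05, and 1 member passed without WT 2 and WT 3. Members without overlap numbered 0 to 1 with 1 library left out (1 without WT 4) and 2 without both. Pathway genes at the cutoff were 0 higher and 3 lower; limma voom and the cutoff of 1 gave 1 lower, leaving out 1 library gave 0 to 2 higher and 1 to 4 lower, and leaving out both gave 3 and 11. Lower pathway genes without overlap went from 10 to a range of 10 to 13 and to 34 without both, and those at an unadjusted p under 0.05 from 16 to 11 to 17 and to 26 (higher ones from 0 to at most 8, without WT 4, and 3 without the filter or without both). The difference in the activating to inhibitory ratio was −0.10, ran from −0.19 to 0.03 with 1 library left out, and was 0.15 without both and −0.87 for Fcgr4 alone over Fcgr2b. Fcgr1 turned positive with limma voom (0.38), with the replicate block (0.31) and between −0.39 and 0.36 with 1 library left out, and was −0.85 without both. Tyrobp ran from −0.098 to 0.024 and Syk from −0.12 to 0.00400 with 1 library left out. The other members kept their direction then, but moved with the 4 WT libraries: Fcgr3 from 0.20 (without WT 2) to 0.44 (without WT 4, unadjusted p = 0.00734, adjusted p = 0.123, edgeR), Fcgr2b from 0.14 (WT 3) to 0.48 (WT 4), Fcer1g from 0.075 (WT 2) to 0.35 (WT 4), Fcgr4 from −0.99 (WT 1) to −0.44 (WT 2) and Fcgrt from −0.95 (WT 1) to −0.45 (WT 3). Without both, Fcgr2b was −0.11, Fcgr4 0.39, Fcer1g −0.094, Fcgrt 0.046 and Tyrobp 0.029. These causes were not tested beyond the change of libraries itself. The labels do not say whether same-numbered libraries were paired. Their correlations of deviations were 0.0268, 0.182, 0.0412 and −0.20, and not every library was closest to its own number, which does not settle it. The replicate block left 1 member at the cutoff and 0 with an adjusted p under 0.05. Members with few counts, Fcgr1 and Fcgrt, had 109 and 112 counts in their lowest library, so counting error was small beside the spread of the WT group.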

Other observations

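Without WT 2 and WT 3, 3 of the 91 tested pathway genes had an adjusted p under 0.05 by edgeR, against 1.21% of all genes, and these were lower in Gsdmd-/- libraries: Fgr, Clec4a1 and Pilrb2. Fgr, a Src family kinase of myeloid cells, was at 46.6, 14.2, 18.7 and 61.9 CPM in WT 1 to 4 and at 23.5, 22.5, 24.7 and 22.8 CPM in Gsdmd-/- 1 to 4. As for Fcgr1, WT 1 and WT 4 were above and WT 2 and WT 3 below every Gsdmd-/- library. Its log2 fold change was −0.60 over all libraries (SE 0.390, adjusted p = 0.591) and −1.22 without the 2 libraries (SE 0.117, adjusted p = 0.00227), and over 17 alternatives the adjusted p ran from 0.00227 to 0.788. Clec4a1, a FcR gamma-coupled lectin, changed from −0.996 (adjusted p = 0.604) to −1.84 (adjusted p = 0.00858) on 242 counts in all, with an adjusted p from 0.00858 to 0.912 over its alternatives. Pilrb2 changed from −1.26 to −1.96 (adjusted p = 0.0199, range over alternatives 0.0199 to 0.635). In that fit, with WT 1 and WT 4 as the only WT libraries, 34 of 91 pathway genes were lower without overlap (37.4%, against 11.2% of all genes tested). Higher without overlap were 4 of 91, against 11.5%. These counts were added after the data were seen.

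Within 100 kb of a member, WT 2 and WT 3 were the lowest pair in 7 of 39 tested neighbours and the highest pair in 5, against 17.5% and 17.9% of all genes. The lowest pairs were 2 of 5 neighbours of Fcgr1, 3 of 13 of Fcgrt and 2 of 6 of Tyrobp, and the highest pairs included 3 of 13 neighbours of Fcgrt and 1 of 9 of Fcer1g.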
